A study of Rattus norvegicus with 20 samples.

Results

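The white adipocyte genes examined here were 36 genes of the fat cell, found among the array's probes by gene name, and their levels were followed over 5 groups of rat mesenteric arteries. Of the 36 genes listed, 34 had a probe of that name. Plin4 and Pnpla3 were not analysed here. Of the 34, 32 had a signal well above background throughout at least 1 group of 4 arrays and were tested among 16387 genes. All of these 32 were above background on all 20 arrays. Adrbk2 was well above background on 5 of the 20 arrays and Acacb on 1, and neither was tested. The tissue was whole mesenteric artery, and the array carried 60-base probes read in 1 colour. Of the 6 genes fixed as white adipocyte markers (Adipoq, Plin1, Cidec, Lep, Retn and Cfd), all 6 were measured in every group.

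The groups were 4 rats each, labelled as biological replicates, and all rats were given as 6 weeks old; whether this is the age at operation or at sampling was not given in the sources used here. The normotensive strain WKY/Izm made up 3 groups: untreated, 2K1C (2 kidneys, 1 clip) and 1K1C (1 kidney, 1 clip), with 3 weeks given for the treatment. In both operations a clip narrows a renal artery and blood pressure climbs, and in 1K1C the other kidney is also removed. The remaining groups were untreated SHR/Izm, the spontaneously hypertensive rat, and untreated SHRSP/Izm, its stroke-prone substrain. The sex of the rats, how much fat was trimmed from the vessels and whether the operated groups had a sham control were not given in the sources used here. The comparisons asked how the arteries of inherited and of renovascular hypertension differ from those of untreated WKY and from each other.

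White adipocytes store triglyceride in a single large droplet and release it as fatty acids and glycerol. The nuclear receptor Pparg and the factor Cebpa drive their gene programme, and the cells secrete hormones such as adiponectin and leptin. Mesenteric arteries run in a sheet of fat, so perivascular adipocytes are commonly part of an artery sample, and they are known to release factors that act on vessel tone.

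The bases just before the start of 3 members are shown as examples. The 3 are a hormone (Adipoq), a hormone with a C/EBP-type palindrome (Lep) and the first enzyme of fatty acid synthesis (Acly). The part of promoter sequence in the members' levels was not tested. Each stretch is the 250 bases before the transcription start, 5′ to 3′ on the gene's strand, from RefSeq on GRCr8. Capitals mark CCAAT on either strand and the palindrome TTGCGCAA. The Adipoq stretch is chr11:91240170-91240419 (minus strand), that of Lep chr4:58626288-58626537 (plus strand) and that of Acly chr10:85963632-85963881 (minus strand).
Adipoq: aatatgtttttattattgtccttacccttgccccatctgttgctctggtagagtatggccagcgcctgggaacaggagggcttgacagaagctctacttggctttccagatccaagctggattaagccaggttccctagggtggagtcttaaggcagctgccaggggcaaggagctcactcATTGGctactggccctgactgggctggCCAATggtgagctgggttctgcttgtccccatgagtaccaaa
Lep: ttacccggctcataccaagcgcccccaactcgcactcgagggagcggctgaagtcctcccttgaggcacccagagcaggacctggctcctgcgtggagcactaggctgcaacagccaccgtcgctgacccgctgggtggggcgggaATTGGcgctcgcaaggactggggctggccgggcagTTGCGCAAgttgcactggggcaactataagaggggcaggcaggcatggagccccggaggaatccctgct
Acly: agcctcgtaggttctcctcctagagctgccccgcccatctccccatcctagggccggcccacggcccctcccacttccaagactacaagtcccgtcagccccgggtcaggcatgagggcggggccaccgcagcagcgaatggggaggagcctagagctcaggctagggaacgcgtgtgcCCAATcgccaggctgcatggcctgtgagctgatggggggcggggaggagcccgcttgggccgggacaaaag

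Promoters were listed for 25 of the 36 members. CCAAT, on either strand, was found in 14 of these 25 (56.0%) and in 34.0% of all 33469 listed promoters of the same length. For every motif, a member counted if any of its listed promoters held it. The 33469 promoters were counted singly, so the shares of members and of all promoters are not like for like. TTGCGCAA was found in Lep alone among the members, and in 0.14% of all promoters. CACGTG, a letter match to the E-box, was found in Mgll alone (5.59% of all promoters). GGGCGG, on either strand, was found in 14 of 25 members and in 30.5% of all promoters. In the Adipoq stretch the 2 matches to CCAAT began 69 and 42 bases before the start, and in Acly the match began 71 bases before it. These are letter matches in short windows and say nothing about factor binding.

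Values are log2 of the processed signal over the 75th percentile of the same array, so 0 stands for that percentile. Between 66.5% and 71.7% of spots were well above background on each array, and no spot was saturated. The 5 groups lay on 3 slides: 2K1C on 1 slide, 1K1C with untreated WKY on another, and SHR with SHRSP on the third. Slide and group therefore cannot be told apart in the comparisons of SHR, SHRSP and 2K1C with untreated WKY, nor in that of 1K1C with 2K1C. Within a slide lay 1K1C with WKY, and SHRSP with SHR.

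The members were high or low together from rat to rat within each group. All 32 tested members were highest on replicate 1 of SHR within that group. Replicate 1 of untreated WKY was the lowest of its group for 29 members, replicate 1 of 2K1C for 28, replicate 4 of 1K1C for 29 and replicate 4 of SHRSP for 28. The mean of the 32 members, each centred on its own mean over the arrays, was -0.61, 0.72, 0.77 and -0.02 in untreated WKY and -1.16, -0.62, -0.25 and -0.66 in 2K1C. It was 1.22, 1.41, 0.40 and 0.02 in 1K1C, 1.12, -0.37, -0.66 and -0.86 in SHR, and -0.06, 0.23, -0.14 and -0.48 in SHRSP. On this mean 2K1C stood below 1K1C on every array, and the other groups overlapped. The range over all 20 arrays was 2.57. Within a group the SD of a member had a median of 0.75 in WKY, 0.40 in 2K1C, 0.73 in 1K1C, 0.95 in SHR and 0.31 in SHRSP. Over all genes tested the median SD was 0.20 to 0.31. In whole tissue, fewer adipocytes and less RNA per adipocyte cannot be told apart.

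**Figure D1:**
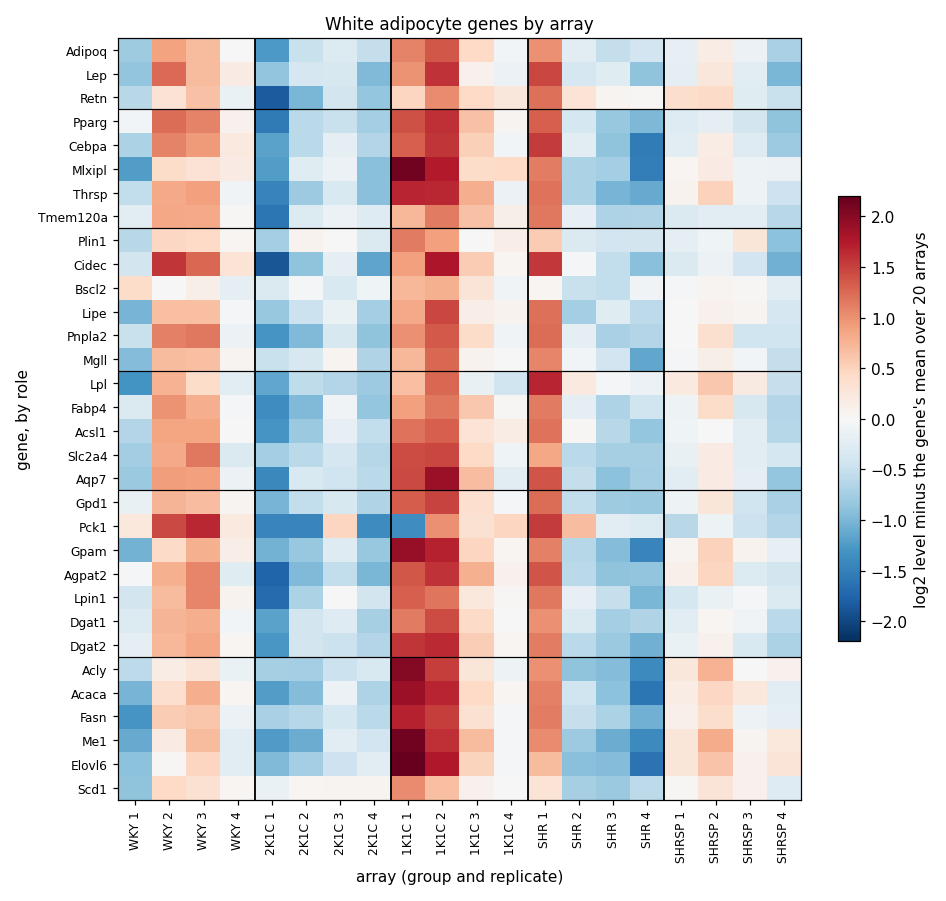
Heat map of the 32 tested members (rows, by role: adipokines, regulators, droplet and lipolysis, uptake, triglyceride synthesis, lipogenesis) on 20 arrays (columns, by group and replicate), as log2 level minus the gene's mean over the arrays. Whole columns share a colour, such as replicate 1 of SHR in red and replicate 1 of 2K1C in blue, and the 6 lipogenesis rows at the bottom are paler or redder than the rows above them in SHRSP.

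Other cell types also differed between arrays, in part on the same ones. The mesothelium list (4 of 6 measured), centred in the same way, stood at 3.63 and 2.47 on replicates 2 and 3 of untreated WKY, 3.99 on replicate 1 of SHR and 3.00 on replicate 2 of 1K1C. These arrays also had high adipocyte genes, but replicate 1 of 1K1C, with a member level of 1.22, had mesothelium at -1.02. It ran from -1.88 to 1.13 on all others. The smooth muscle list (8 of 8 measured) had its lowest values, -3.16 and -1.14, on replicate 2 of 1K1C and replicate 1 of SHR, and -1.08 on replicate 1 of 1K1C. It ranged over -0.48 to 0.35 in WKY, -0.57 to 1.12 in 2K1C and -0.09 to 0.98 in SHRSP. The brown adipocyte list (9 of 14 measured) was 2.88 on replicate 1 of WKY, the array with the lowest white adipocyte level of that group, and -1.25 to 1.53 on the others. The nerve list (5 of 6 measured) was 2.74 on that same WKY array and ran from -1.90 to 1.71 elsewhere. The lymph node list (3 of 8 measured) was 6.11 on replicate 4 of 2K1C and 4.37 on replicate 4 of SHRSP, the lowest array of its group for 28 members. The pancreas and intestine list (7 of 9 measured) was -4.26 on replicate 3 of WKY and -3.38 on replicate 4 of SHRSP. The part of these cell types in the members' differences was not tested.

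**Figure D2:**
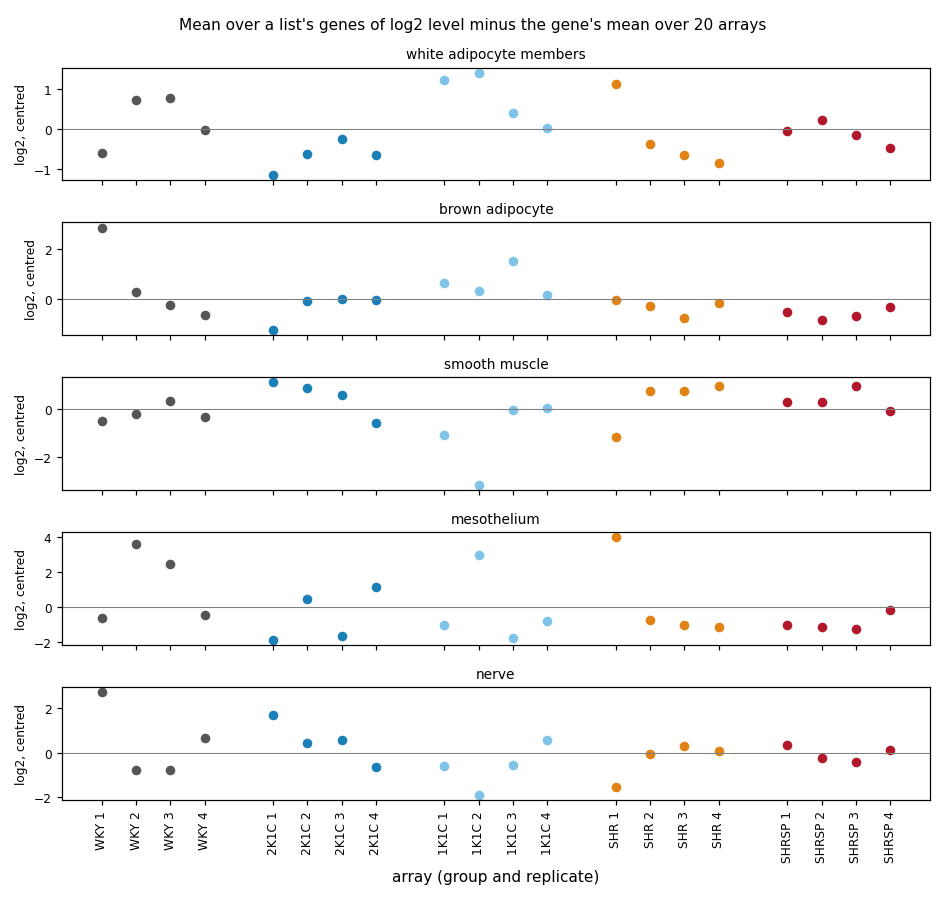
Level of the 32 members and of 4 cell type marker lists on each of 20 arrays (x axis, group and replicate), as the mean over a list's genes of the log2 level minus the gene's mean over the arrays (y axis). Mesothelium is high on the arrays WKY 2, WKY 3, 1K1C 2 and SHR 1, and brown adipocyte and nerve genes are highest on WKY 1.

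The adipokines are the hormones of the fat cell. Adipoq, which encodes adiponectin, read 5.52, 7.18, 6.99 and 6.29 in untreated WKY, 5.04, 5.81, 5.99 and 5.77 in 2K1C, and 7.39, 7.66, 6.73 and 6.24 in 1K1C. It read 7.30, 6.06, 5.78 and 5.88 in SHR and 6.12, 6.46, 6.17 and 5.58 in SHRSP. Every 1K1C array lay above every 2K1C array, and WKY overlapped all other groups. Lep, which encodes leptin, read -4.18, -2.07, -2.62 and -3.14 in WKY, -4.18, -3.68, -3.67 and -4.28 in 2K1C, and -2.33, -1.72, -3.22 and -3.45 in 1K1C. It read -1.84, -3.68, -3.58 and -4.20 in SHR and -3.54, -3.06, -3.57 and -4.33 in SHRSP, and its order over the arrays was close to that of Adipoq. Retn, which encodes resistin, read 4.73, 5.65, 5.98 and 5.19 in WKY, 3.50, 4.32, 4.93 and 4.49 in 2K1C, 5.81, 6.37, 5.77 and 5.59 in 1K1C, 6.54, 5.64, 5.40 and 5.36 in SHR, and 5.72, 5.75, 5.07 and 4.84 in SHRSP. The highest 2K1C array for Retn was below all arrays of 1K1C and of SHR. The Adipoq probe lies at chr11:79908299-79908358, that of Lep at chr4:55945879-55945938 and that of Retn at chr12:2499633-2499692, all on rn4, the build of the array design, as are all probe positions that follow. No annotation of that build was used, so the exon is not given.

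The regulators sit above the metabolic genes. Pparg, the master factor of adipocyte differentiation (probe chr4:151617128-151617187), read 3.48, 4.77, 4.64 and 3.63 in untreated WKY, 1.99, 2.94, 3.06 and 2.80 in 2K1C, and 4.95, 5.14, 4.19 and 3.61 in 1K1C. It read 4.85, 3.15, 2.71 and 2.56 in SHR and 3.25, 3.32, 3.13 and 2.66 in SHRSP. All 2K1C and all SHRSP arrays were below all WKY arrays, whereas 1 SHR array was above them. Cebpa (probe chr1:87627393-87627452) read -1.90, -0.12, -0.28 and -0.99 in WKY, -2.38, -1.80, -1.41 and -1.86 in 2K1C, 0.10, 0.36, -0.68 and -1.27 in 1K1C, 0.33, -1.46, -2.09 and -2.74 in SHR, and -1.45, -1.04, -1.50 and -2.01 in SHRSP. Here WKY overlapped every group. Mlxipl encodes ChREBP, the glucose-responsive activator of lipogenic genes. It read -1.92, -0.29, -0.37 and -0.52 in WKY and 1.43, 1.05, -0.29 and -0.25 in 1K1C, with -1.93 to -0.82 in 2K1C, -2.21 to 0.43 in SHR and -0.83 to -0.51 in SHRSP. Thrsp (Spot 14), a lipogenesis-associated nuclear protein, had means of 5.82 ± 0.70 (SD, n = 4) in WKY, 4.67 ± 0.47 in 2K1C, 6.55 ± 0.85 in 1K1C, 5.13 ± 1.09 in SHR and 5.56 ± 0.40 in SHRSP. Tmem120a, a membrane protein of the nuclear envelope, ran from -0.74 on replicate 1 of 2K1C to 2.00 on replicate 1 of SHR.

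The 6 measured members of the next role coat, form or break down the lipid droplet. Plin1, the droplet coat protein perilipin 1 (probe chr1:135497463-135497522), read -2.26, -1.20, -1.22 and -1.61 in untreated WKY, -2.40, -1.58, -1.66 and -1.97 in 2K1C, -0.51, -0.76, -1.67 and -1.50 in 1K1C, -1.09, -1.98, -2.08 and -2.05 in SHR, and -1.86, -1.75, -1.38 and -2.55 in SHRSP. All groups overlapped. Cidec, which fuses droplets into a large one, read 1.48, 3.45, 3.14 and 2.17 in WKY, -0.01, 0.99, 1.68 and 0.71 in 2K1C, 2.78, 3.65, 2.43 and 1.92 in 1K1C, 3.43, 1.84, 1.33 and 0.95 in SHR, and 1.55, 1.75, 1.45 and 0.82 in SHRSP. Of its WKY arrays only replicate 1 lay within the 2K1C range. Lipe, hormone-sensitive lipase (probe chr1:80672329-80672388), read -1.78, -0.09, -0.09 and -0.79 in WKY, -1.59, -1.23, -0.90 and -1.50 in 2K1C, 0.07, 0.71, -0.62 and -0.68 in 1K1C, 0.45, -1.50, -1.03 and -1.34 in SHR, and -0.75, -0.66, -0.70 and -1.13 in SHRSP. Lipe was again higher in 1K1C than in 2K1C on every array. Pnpla2, the first lipase of triglyceride breakdown, had means of 3.08 ± 0.84 (SD, n = 4) in WKY, 1.79 ± 0.40 in 2K1C and 3.33 ± 0.64 in 1K1C, with 2.59 ± 0.90 in SHR and 2.54 ± 0.39 in SHRSP. Mgll, which splits the last fatty acid from glycerol, ranged from 0.72 to 3.13 over the arrays. Bscl2 encodes seipin, which helps bud the droplet from the endoplasmic reticulum. It varied least of these, from 2.77 to 4.09.

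The uptake genes bring fatty acids, glucose and glycerol into or out of the cell. Lpl, which releases fatty acids from circulating lipoproteins (probe chr16:22533294-22533353), read 1.25, 3.33, 2.98 and 2.32 in untreated WKY, 1.43, 2.02, 1.93 and 1.77 in 2K1C, and 3.23, 3.83, 2.41 and 2.14 in 1K1C. It read 4.24, 2.79, 2.54 and 2.44 in SHR and 2.78, 3.16, 2.77 and 2.07 in SHRSP. Lpl was 1 of only 2 members, with Retn, whose mean was higher in SHR than in WKY. Fabp4, the fatty acid carrier of the adipocyte cytosol (probe chr2:93536175-93538589), read 5.62, 6.92, 6.73 and 5.91 in WKY, 4.57, 4.96, 5.86 and 5.08 in 2K1C, 6.84, 7.10, 6.53 and 5.96 in 1K1C, 7.07, 5.74, 5.26 and 5.49 in SHR, and 5.83, 6.33, 5.59 and 5.29 in SHRSP. Slc2a4, the insulin-responsive glucose transporter GLUT4 (probe chr10:56786861-56786920), read 1.65, 3.25, 3.58 and 2.09 in WKY, 1.67, 1.83, 2.04 and 1.79 in 2K1C, 3.85, 3.89, 2.85 and 2.32 in 1K1C, 3.27, 1.82, 1.68 and 1.68 in SHR, and 2.25, 2.60, 2.17 and 2.03 in SHRSP. Both genes were higher in 1K1C than in 2K1C on every array, and overlapped between all other pairs of groups compared. Acsl1, which activates fatty acids with coenzyme A, ran from 4.46 to 7.07, and Aqp7, the glycerol channel, from 0.97 to 4.29.

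The triglyceride synthesis genes make the glycerol backbone and attach fatty acids to it. Pck1, the enzyme of glyceroneogenesis in fat (probe chr3:164017597-164017656), read 1.93, 3.14, 3.35 and 1.90 in untreated WKY, 0.23, 0.24, 2.16 and 0.30 in 2K1C, 0.33, 2.69, 2.02 and 2.17 in 1K1C, 3.22, 2.37, 1.44 and 1.39 in SHR, and 1.08, 1.58, 1.22 and 1.04 in SHRSP. All 4 SHRSP arrays were below all WKY arrays, and in 2K1C replicate 3 alone was within the WKY range. Pck1 departed from the other members in 1K1C: replicate 1 of 1K1C was its lowest of that group, where Adipoq read 7.39. Agpat2, which adds the second fatty acid, read 1.31, 2.12, 2.41 and 1.08 in WKY, -0.41, 0.37, 0.80 and 0.33 in 2K1C, 2.71, 2.94, 2.12 and 1.44 in 1K1C, 2.72, 0.75, 0.45 and 0.47 in SHR, and 1.46, 1.81, 1.05 and 0.94 in SHRSP. Its 2K1C arrays were below all arrays of WKY, 1K1C and SHRSP. Gpam and Lpin1 catalyse the steps before and after Agpat2, Dgat1 and Dgat2 the final esterification, and Gpd1 makes glycerol 3-phosphate from glucose. Gpd1 and Dgat2, like Agpat2 and Pparg, were below WKY on every 2K1C array.

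The 6 measured members of lipogenesis make fatty acids from acetyl-CoA. Fasn, fatty acid synthase, read 5.33, 7.19, 7.25 and 6.51 in untreated WKY, 5.91, 6.01, 6.24 and 6.03 in 2K1C, 8.33, 8.15, 6.97 and 6.61 in 1K1C, 7.76, 6.13, 5.93 and 5.57 in SHR, and 6.75, 7.02, 6.52 and 6.42 in SHRSP. Scd1, the delta-9 desaturase (named Scd in RefSeq, probe chr1:249458860-249458919), read 6.51, 7.83, 7.73 and 7.44 in WKY, 7.24, 7.44, 7.46 and 7.45 in 2K1C, 8.43, 8.05, 7.49 and 7.39 in 1K1C, 7.69, 6.66, 6.58 and 6.81 in SHR, and 7.42, 7.67, 7.48 and 7.11 in SHRSP. Replicates 2 to 4 of SHR were below the whole SHRSP range for both genes. Elovl6, which elongates palmitate (probe chr2:227054046-227054105), read 1.93, 2.86, 3.31 and 2.61 in WKY, 1.87, 2.10, 2.38 and 2.61 in 2K1C, 5.21, 4.61, 3.33 and 2.82 in 1K1C, 3.53, 1.92, 1.88 and 1.22 in SHR, and 3.10, 3.46, 2.93 and 3.12 in SHRSP. Me1, malic enzyme, a source of the NADPH that synthesis needs (probe chr8:91839922-91839981), read 4.31, 5.61, 6.12 and 5.18 in WKY, 4.18, 4.34, 5.18 and 5.01 in 2K1C, 7.55, 7.03, 6.13 and 5.38 in 1K1C, 6.46, 4.63, 4.33 and 4.02 in SHR, and 5.70, 6.24, 5.48 and 5.66 in SHRSP. For Elovl6 and Me1 the same 3 SHR arrays, replicates 2 to 4, were below every SHRSP array, and replicate 1 was above every one. Acly, which makes cytosolic acetyl-CoA (probe chr10:89420943-89421002), had means of 4.97 ± 1.07 (SD, n = 4) in SHR and 5.80 ± 0.34 in SHRSP, and Acaca, which carboxylates it, 0.20 ± 1.15 and 0.80 ± 0.30.

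**Figure D3:**
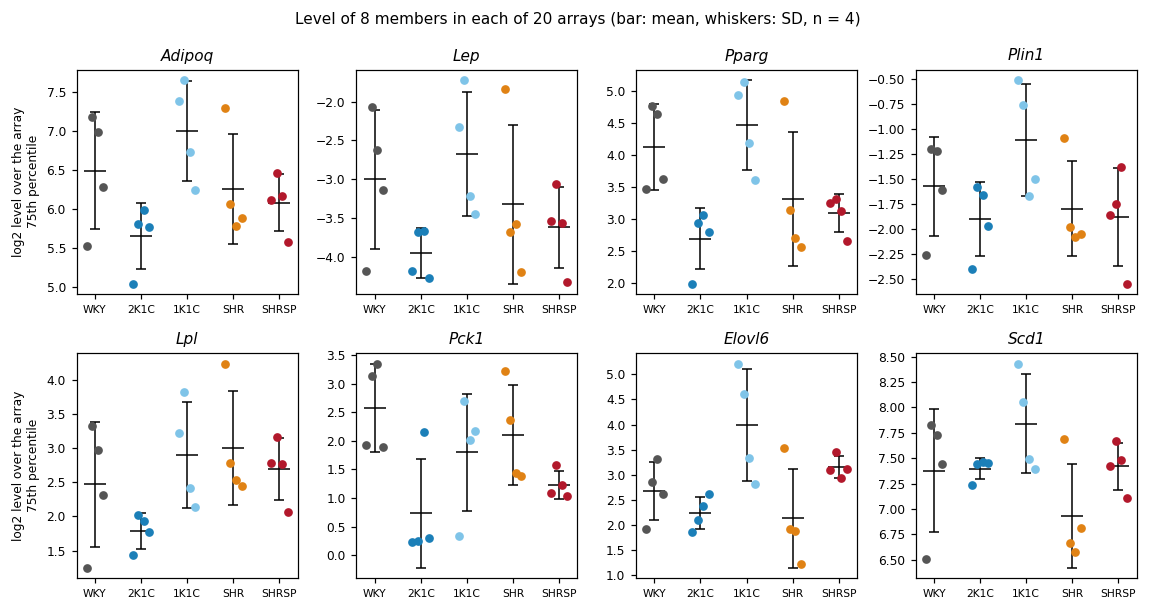
Log2 level over the array's 75th percentile (y axis) of 8 members on each of 4 arrays per group (x axis); bars are means and whiskers SD. For Adipoq, Lep, Pparg, Lpl and Elovl6 all 1K1C points lie above all 2K1C points, and replicate 1 of SHR stands above the other SHR points in every panel.

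The widest separation was between the renovascular groups. All 32 members were higher in 1K1C than in 2K1C, by 0.44 to 2.03 on the log2 scale with a median of 1.48, against a median of 0.02 over all genes, of which 51.8% were higher. Agpat2 was higher by 2.03 ± 0.46 (SE, 4.08-fold) and Thrsp by 1.88 ± 0.49 (3.68-fold). The median was 1.77 for regulators, 1.62 for lipogenesis, 1.45 for uptake, 1.43 for triglyceride synthesis, 1.36 for adipokines and 1.03 for droplet and lipolysis genes. The genes of these roles overlapped (regulators 1.23 to 1.88, droplet and lipolysis 0.63 to 1.85), and the difference between roles was not tested. In 27 members the groups did not overlap, as for 7.4% of all genes in that direction. None of the 32 passed the test in limma after Benjamini-Hochberg adjustment, and 0% of all genes did. The lowest adjusted p among them was 0.0728, and 29 had an unadjusted p under 0.05, against 15.8% of all genes in that direction. The count rested on single arrays: without replicate 4 of 1K1C 25 members passed in limma, without replicate 1 of SHR, which enters through the shared spread, 24, and without replicate 3 of 2K1C 3. Smooth muscle genes ran the other way in this comparison, with all 8 lower in 1K1C (median -1.57, 0 passing). Brown adipocyte genes were higher for 7 of 9 (median 1.44, 0 passing) and fibroblast genes for 6 of 8 (median 0.78, 0 passing), and their part in the result was not tested. With arrays weighted by their quality in limma, 24 of the 32 members passed, as did 1007 of all 16387 genes.

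Against untreated WKY, 2K1C arteries had lower values for 31 of 32 members, with a median of -0.93 against 0.03 over all genes, of which 46.5% were lower. Pck1 was lower by -1.85 ± 0.54 (SE, 3.6-fold) and Cidec by -1.72 ± 0.53 (3.29-fold), and Scd1 was the exception at 0.02 ± 0.29. Of the 7 triglyceride synthesis genes, all were lower, with a median of -1.06, and the lipogenesis genes had a median of -0.52. No member passed in limma (0.0122% of all genes did), with a lowest adjusted p of 0.11. At an unadjusted p under 0.05 there were 15 lower members, against 11.2% of all genes, and 4 did not overlap with WKY (Pparg, Gpd1, Agpat2 and Dgat2; 4.08% of all genes). Pck1 alone passed without replicate 3 of 2K1C (adjusted p = 0.0376 in limma) or without replicate 4 of WKY (adjusted p = 0.0488). With array weights 26 members passed in limma, as did 4455 of all genes. The 8 smooth muscle genes were all higher in 2K1C (median 0.51, 0 passing).

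Against the same untreated WKY arrays, 1K1C arteries had higher values for 31 of 32 members, with a median of 0.46 against 0.10 over all genes, of which 65.4% were higher. The lipogenesis genes (median 0.98) were highest, led by Elovl6 at 1.32 ± 0.48 (SE, 2.49-fold), and the regulator Mlxipl followed at 1.26 ± 0.50 (2.4-fold). Pck1 was lower, by -0.78 ± 0.54. No member passed in limma, nor did any gene (0%). The regulator and 3 lipogenesis genes had an unadjusted p under 0.05 in that direction, against 4.9% of all genes: Mlxipl, Elovl6, Me1 and Acly. Mlxipl alone did not overlap with WKY (2.28% of all genes). All 8 smooth muscle genes were lower in 1K1C (median -0.87, 0 passing) and all 8 fibroblast genes higher (median 0.37, 0 passing), and their part in the result was not tested. This comparison lay within 1 slide, with the groups in different rows.

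In SHR, 30 of 32 members were lower than in untreated WKY, with a median of -0.47 against 0.02 over all genes, of which 47.4% were lower. Pparg was lower by -0.81 ± 0.46 (SE) and Thrsp by -0.69 ± 0.49, and Lpl (0.53 ± 0.46) and Retn (0.34 ± 0.34) were higher. No member passed in limma, where 1.85% of all genes did, and none had an unadjusted p under 0.05, where 14% of all genes did. In SHRSP 23 members were lower and 9 higher (median -0.40, all genes 0, with 49.5% of them lower), Pck1 by -1.35 ± 0.54 (2.55-fold) and Cidec by -1.17 ± 0.53 (2.25-fold). No member passed in limma, where 2.4% of all genes did; Pparg, Cidec and Pck1 had an unadjusted p under 0.05, against 7.34% of all genes in that direction, and Pparg and Pck1 did not overlap with WKY (4.97%). Without replicate 1 of SHR the median for SHR was -0.91. Of the marker genes of other cell types, Dpt, a fibroblast matrix gene, was higher in both strains (by 1.62 and 1.28, adjusted p = 0.000781 and 0.00625 in limma). The fibroblast list as a whole was mixed, with 6 of 8 genes higher in SHR (median 0.26) and 4 of 8 in SHRSP (median 0.19). The neuronal genes Prph and Gap43 were lower in both (by -3.50 and -2.97 in SHR). The other 3 nerve genes measured were higher in both strains, by up to 1.90 in SHR and 2.54 in SHRSP. In the operated groups the lowest nerve gene difference from WKY was -2.87 for 2K1C and -3.40 for 1K1C. Ppargc1a, a brown fat coactivator, was lower in SHR (-1.37, adjusted p = 0.035 in limma). With array weights 30 members passed in limma for SHR and 15 for SHRSP, beside 7126 and 5070 of all genes. These weights ran from 0.26 (replicate 4 of 2K1C) to 4.94 (replicate 2 of SHR), with 0.33 for replicate 1 of SHR and 0.28 for replicate 1 of WKY. Both comparisons share the WKY arrays and cross slides.

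SHRSP and SHR lay on 1 slide, in different rows. The median over all 32 members was -0.01, with 15 higher and 17 lower, but all 6 lipogenesis genes were higher in SHRSP (median 0.72). The overall median had no settled sign: it was 0.43 without replicate 1 of SHR and -0.21 without replicate 4. The difference between roles was not tested. Elovl6 was higher by 1.01 ± 0.48 (SE, 2.02-fold), Me1 by 0.91 ± 0.52 (1.88-fold), Acly by 0.84 ± 0.47, Acaca by 0.60 ± 0.52, Scd1 by 0.48 ± 0.29 and Fasn by 0.33 ± 0.47. The adipokines were lower (median -0.30) and the other roles had medians of -0.13 to -0.01. No member passed in limma (every adjusted p was 1, with 0.372% of all genes passing), and none had an unadjusted p under 0.05 (2.01% of all genes higher). Per array, the mean of the 6 lipogenesis genes minus that of the other 26, each gene centred, was -0.29, -0.42, -0.30 and -0.51 in SHR and 0.30, 0.40, 0.24 and 0.56 in SHRSP. It was -0.44, -0.53, -0.29 and -0.11 in untreated WKY, 0.38, -0.08, -0.02 and 0.35 in 2K1C, and 0.77, 0.06, -0.01 and -0.06 in 1K1C. On this difference SHRSP lay above SHR and WKY on every array. It was formed after the values were seen and has no test. With array weights 7 members passed in limma, beside 813 of all genes, among them Elovl6 (1.28, adjusted p = 0.0056) and Me1 (1.32, adjusted p = 0.0083). The second probes of Elovl6 and Me1 gave 1.02 and 1.02.

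**Figure D4:**
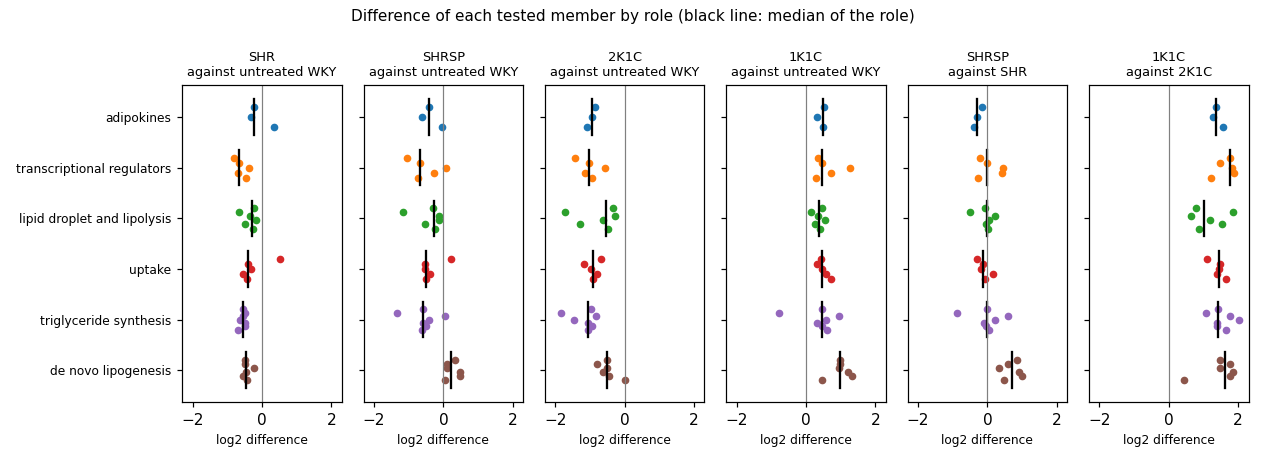
Log2 difference (x axis) of each tested member in the 6 comparisons, by role (rows); each point is a gene and black lines are medians. Nearly all points lie right of 0 for 1K1C against 2K1C and left of 0 for 2K1C against WKY, and for SHRSP against SHR the lipogenesis genes alone lie wholly to the right.

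Because the members followed Adipoq from array to array, limma was also fitted with each array's Adipoq level as a covariate, a choice made after the data were seen. Within groups, 29 of the other 31 members rose with Adipoq after adjustment, against 13.9% of all genes upward and 7.77% downward. Their median slope was 1.02 log2 per log2 of Adipoq, against 0.04 over all genes. The slope was 1.31 ± 0.07 (SE) for Aqp7, 1.27 ± 0.11 for Cidec, 1.19 ± 0.12 for Lep and 0.67 ± 0.08 for Scd1. Bscl2 (0.21 ± 0.11, adjusted p = 0.173 in limma) and Pck1 (0.71 ± 0.29, adjusted p = 0.0974) did not pass. Of genes outside the members, those most like Adipoq by the p of this slope over the 20 arrays were Mgst1 (1.25 ± 0.08) and Fah (1.10 ± 0.07), followed among named genes by Sucnr1, Cfd, Rhbg, Prlr and Tusc5. They were named after their values were seen. The genes of other cells moved too: 4 of 4 mesothelial genes rose with Adipoq (slopes 1.35 to 3.29), as did the macrophage genes Mrc1 and Cd163. The smooth muscle genes Acta2, Tagln, Lmod1 and Myocd fell. Of 8 endothelial genes 0 passed, and of 9 brown adipocyte genes Adrb3 alone.

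At equal Adipoq the members of the renovascular groups went both ways. The median over 31 members was 0.12 for 1K1C against 2K1C, 0.04 for 2K1C and 0.06 for 1K1C against WKY, with all genes at 0, 0.07 and 0.06. No member passed in these 3 comparisons in limma, nor did any gene (0%). In either direction 4 members had an unadjusted p under 0.05 for 1K1C against 2K1C (3.2% of all genes), 8, of which 7 were lower, for 2K1C (15.2%) and 5 for 1K1C against WKY (9.36%). Pck1 read -1.25 ± 0.54 (SE) in 2K1C and -1.14 ± 0.50 in 1K1C, Cidec -0.65 ± 0.20 and -0.51 ± 0.18, and Elovl6 0.80 ± 0.29 in 1K1C. Against WKY the median was -0.25 in SHR, with 4 of 31 members higher, and 0.02 in SHRSP, with 16 higher. In these strains Lpl and Me1 passed. Lpl was higher than in WKY by 0.81 ± 0.13 (SE) in SHR (adjusted p = 0.00141 in limma, 3.7% of all genes passing) and by 0.69 ± 0.13 in SHRSP (adjusted p = 0.00466, 3.64% passing). Me1 was higher in SHRSP by 0.95 ± 0.25 (adjusted p = 0.0478 in limma) and read -0.16 ± 0.25 in SHR. Next to it, Pparg read -0.54 ± 0.15 in SHR and -0.58 ± 0.16 in SHRSP (adjusted p = 0.0646 and 0.0521 in limma), and Cidec -0.64 ± 0.18 in SHRSP (adjusted p = 0.0608). With Cfd as the covariate Pparg passed in SHR (-0.68, adjusted p = 0.0405 in limma) and in SHRSP (-0.89, adjusted p = 0.00794), and Cidec in SHRSP (-1.0, adjusted p = 0.0166). Taken as its deviation minus that of Adipoq on the same array, Lpl ran from -0.54 to -0.12 in WKY, 0.29 to 0.67 in SHR, 0.21 to 0.43 in SHRSP, -0.34 to 0.12 in 2K1C and -0.59 to -0.11 in 1K1C. On this measure all SHR and SHRSP arrays lay above all WKY arrays. It reuses the values of the fit, so it is no further test of Lpl. Other members also separated from WKY on it. Retn did so in SHR (0.20 to 0.59 against -0.56 to 0.18). Pparg did so in SHRSP, downward (-0.38 to -0.11 against 0.09 to 0.72). The share over all genes was not computed. The Lpl call in SHR held with Fabp4 or Cfd in place of Adipoq (0.95 and 0.66, adjusted p = 0.0378 and 0.0145 in limma). That in SHRSP did not (0.78 and 0.37, adjusted p = 0.0999 and 0.15). The Me1 call was lost with Cfd (0.62, adjusted p = 0.141 in limma) and in 13 of 20 fits that each left out 1 array (0.80 to 1.08 over all 20).

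Between SHRSP and SHR at equal Adipoq, all 6 lipogenesis genes were higher in SHRSP, by 0.52 to 1.19 with a median of 0.90, against 0 over all genes. Elovl6 was higher by 1.19 ± 0.28 (SE), Me1 by 1.11 ± 0.25, Acly by 1.00 ± 0.27, Acaca by 0.81 ± 0.23, Scd1 by 0.60 ± 0.13 and Fasn by 0.52 ± 0.19. Each had an unadjusted p under 0.05 (2.97% of all genes higher) and none passed after adjustment (0.5% of all genes), the lowest adjusted p in limma being 0.0579 for Scd1. Thrsp (0.63 ± 0.16), Gpam (0.80 ± 0.22) and Mlxipl (0.65 ± 0.26), genes tied to lipogenesis or to the use of its product, were the other members with an unadjusted p under 0.05. Scd1 passed with quantile normalization (0.62, adjusted p = 0.025 in limma), and Scd1 (0.72) and Me1 (1.08) with normexp correction followed by quantile normalization. With 1 array left out, up to 3 members passed: Me1, Elovl6 and Scd1 without replicate 1 of 1K1C.

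**Figure D5:**
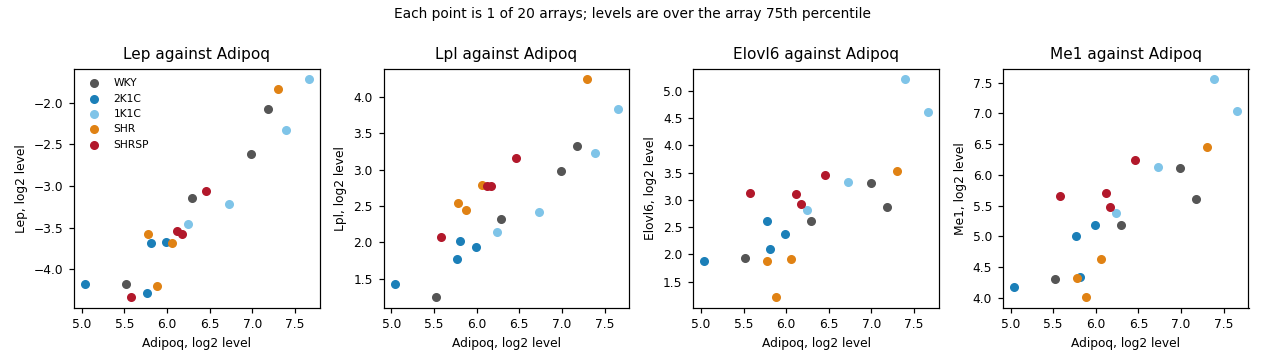
Log2 level of Lep, Lpl, Elovl6 and Me1 (y axes) against that of Adipoq (x axes), both over the array's 75th percentile; each point is 1 of 20 arrays, coloured by group. Lep follows Adipoq in every group. For Lpl the SHR and SHRSP points lie above WKY points of a like Adipoq level, though the Lpl levels themselves overlap. For Elovl6 and Me1 the SHRSP points lie above the 3 SHR points of low Adipoq.

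Other genes of the same pathways were followed in 6 partner lists, of which no gene passed in limma in any of the 6 comparisons without a covariate. At equal Adipoq, Nampt, an enzyme of NAD synthesis also secreted by fat, was lower in SHR (-0.70 ± 0.10, SE) and SHRSP (-0.58 ± 0.10). The factor Cebpd was higher in SHR (0.95 ± 0.25, adjusted p = 0.0404 in limma). In 1K1C against 2K1C, 9 of 10 lipogenesis partners were higher (median 1.11), led by Slc25a1, the citrate carrier (1.84 ± 0.51, SE), and Acss2, which makes acetyl-CoA from acetate (1.61 ± 0.41). In the same comparison 10 of 12 adipocyte regulators were higher (median 0.69), led by Insig1 (1.97 ± 0.53) and Srebf1 (1.47 ± 0.36), which both belong to the sterol-regulated control of lipid synthesis. Droplet and lipolysis partners (14 of 16 higher, median 1.02), adipokines and receptors (8 of 9, 0.71), triglyceride synthesis partners (8 of 9, 0.49) and uptake and insulin genes (9 of 12, 0.45) had the same direction. In SHRSP against SHR, 8 of 10 lipogenesis partners were higher, with a median of 0.22, led by Acss2 (0.52 ± 0.41). Klf15, a factor of adipocyte and glucocorticoid-driven metabolism, was lower by -1.14 ± 0.26 (adjusted p = 0.0838 in limma), with no overlap between the groups. In that direction 2 of the 12 adipocyte regulators did not overlap, as did 306 of all 16387 genes.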

How the data were processed

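Arrays of 1 colour (Cy3, Agilent) measured artery RNA in 20 rats. Per the submitters' processing notes, the scans were quantified in Agilent Feature Extraction, version 10.7.3.1. The deposited scanner files give each spot's processed signal, an intensity already corrected for background per the file headers. From it, log2 of the intensity minus the 75th percentile of each array over non-control spots was computed, without control and outlier spots. A gene was tested, by the brightest of its probes, where that probe exceeded background clearly in every array of some group. This left 16387 genes. Groups were compared with limma 3.58.1 in R 4.3.3 over all 20 arrays, and p-values were adjusted by Benjamini-Hochberg over all genes at 0.05. The fit was tested on simulated data for SHRSP against WKY and for the slope on a simulated covariate, not on Adipoq itself. The simulated noise was independent between genes, unlike that of the members, which moved together. The number of arrays limits the precision.

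Values on every array were given for 13 members named in the design and for others named for their role, and each comparison names its 2 largest differences and any member that passed. Of the partner and marker lists, genes that passed were named, or else up to 2 with the largest differences. The members and lists were chosen with earlier results of these data known. Of the correlations between same-numbered replicates of different groups, 13 of 40 were over 0.1 (median -0.03). Between replicates of other numbers and groups, 40 of 120 were (median 0). Such values cannot show whether the numbers pair the rats, and the main fit used no pairing. Whether the rats shared a litter or day was not given in the sources used here. Alternatives were other normalizations, filters, array weights, a replicate block, leaving out each array and, added after the data were seen, Adipoq, Fabp4 or Cfd as a covariate.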

Additional observations from a re-analysis of the deposited data

Results flagged for a closer look

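A value far from the other 3 of its group was found in 9 of 165 gene and group sets (5.45%), and chance gives about 1 in 20. Replicate 1 of SHR was the high value for 5 members: Plin1 at -1.09 (next -1.98), Slc2a4 at 3.27 (next 1.82), Aqp7 at 3.77 (next 1.87), Gpd1 at 6.04 (next 4.27) and Agpat2 at 2.72 (next 0.75). In 2K1C, replicate 1 was the low value for Tmem120a at -0.74 (next 0.54) and for Scd1 at 7.24 (next 7.44), and replicate 3 the high value for Pck1 at 2.16 (next 0.30). In untreated WKY, replicate 1 was the low value for Mlxipl at -1.92 (next -0.52).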

How the results depend on the processing

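With array weights the members called were 30 for SHR, 15 for SHRSP and 26 for 2K1C against untreated WKY, 7 for SHRSP against SHR and 24 for 1K1C against 2K1C; the cause was not tested. All genes called ranged from 96 to 7126 for SHR, 162 to 5070 for SHRSP, 0 to 4455 for 2K1C and 0 to 406 for 1K1C against WKY, 28 to 813 for SHRSP against SHR and 0 to 1007 for 1K1C against 2K1C over the alternatives that kept all arrays. With Adipoq as a covariate, added after the data were seen, 1 member was called for SHR and 2 for SHRSP against WKY, and the median moved to 0.04 for 2K1C against WKY and to 0.12 for 1K1C against 2K1C; it was -0.25 for SHR and 0.02 for SHRSP against WKY. Leaving out 1 array gave 0 to 25 members called for 1K1C against 2K1C, 0 to 1 for 2K1C against WKY, and 0 for the other comparisons. The median then ran from 1.26 to 1.71, from -1.16 to -0.70, from 0.24 to 0.72 (1K1C against WKY), from -0.91 to -0.24 (SHR), from -0.65 to -0.19 (SHRSP) and from -0.21 to 0.43 (SHRSP against SHR, whose sign is not settled).

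Among the members called at equal Adipoq, SHRSP against SHR gave 1 with quantile normalization and 2 with normexp followed by quantile normalization, SHRSP against WKY 4 with that same pair of steps and 1 with Fabp4 as covariate, and SHR against WKY 2 with Fabp4 and 2 with Cfd. Leaving out 1 array gave 1 to 3 for SHR, 1 to 4 for SHRSP and 0 to 1 for 2K1C against WKY, 0 to 3 for SHRSP against SHR, 0 for both 1K1C comparisons, and 29 to 30 members with a called upward slope. With the replicate block no member was called in any comparison, and the medians were as reported (-0.47 for SHR, 1.48 for 1K1C against 2K1C). The deposited values without scaling moved the median of all genes by -0.23 to 0.18. Slide as a random block was not run, since 0 of 5 groups lay on more than 1 slide and its correlation could not be estimated.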
